A study of Mus musculus with 6 samples.

Results

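The genes that carry glucose carbon to pyruvate, exchange it with lactate, bring it into mitochondria and run it through the tricarboxylic acid (TCA) cycle were followed in primary mouse cortical cultures given 10HDA. They are 47 genes listed by their role and matched by gene symbol, of 43346 genes in the count table: 2 glucose transporters, 16 glycolysis genes, 5 lactate genes, 11 genes of pyruvate entry and 13 TCA cycle genes. The cultures were primary cortical cells of mouse embryos at gestational day 15.5, all labelled as the Cyp19-EGFP strain and SRY+ (male). Cyp19-EGFP is a transgenic reporter of the aromatase gene, while the study's methods name C57BL/6 embryos for these libraries. Each of 3 separate cultures, numbered 1, 3 and 4 in the labels, gave 1 library treated with vehicle (dimethyl sulfoxide, DMSO) and 1 library treated with 1 mM 10HDA, which makes 3 libraries against 3. 10HDA is 10-hydroxy-2-decenoic acid, a fatty acid of royal jelly with estrogenic activity. The labels name no other agent or deletion, and the length of the treatment is not given in the sources used here.

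Glycolysis splits each glucose into pyruvate in the cytosol, and its first and last steps, hexokinase and pyruvate kinase, are irreversible. Pyruvate is either reduced to lactate, which leaves or enters cells through monocarboxylate transporters, or enters mitochondria, where pyruvate dehydrogenase turns it into acetyl-CoA for the TCA cycle and pyruvate carboxylase turns it into oxaloacetate to refill that cycle. In brain, astrocytes are known for high glycolysis and for carrying pyruvate carboxylase, and neurons for taking up lactate.

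The 6 libraries held 9144736 to 13367194 counts. A gene was tested when it had at least 10 CPM (counts scaled to library size) in at least 3 libraries, which left 10520 genes, and a gene was called at a Benjamini-Hochberg adjusted p under 0.1 over all of these. The CPM values printed are also divided by a scaling factor of each library (TMM, trimmed mean of M-values). Microglial markers summed to 0.77 to 1.26 CPM per library, with Tmem119 at 0 in every library, while neuron markers summed to 7225 to 9260 CPM and astrocyte markers to 1222 to 1900 CPM. Against the SRY+ label, 4 Y-linked genes summed to 8.88 and 9.09 CPM in the vehicle and 10HDA libraries of culture 1. They summed to 95.8 to 133 CPM in the other 4 libraries, so results are also given without culture 1. The X-inactivation marker, which marks female cells, was present in every library. In cultures 1, 3 and 4 it had 1010, 421 and 826 CPM with vehicle and 1411, 394 and 632 CPM with 10HDA. Results without culture 1 are thus not known to be of male cells alone. Without a term for culture, the p-values measure the spread between the 3 cultures within each treatment. With culture in the fit, they concern the spread of the treatment difference across the 3 cultures, of which each gene gives little information. In both, edgeR also shares information on spread across genes. With culture in the fit, most of the spread used for a gene comes from other genes. Those p-values, including the blocked calls below, thus say little about how well a gene's own change repeats between cultures.

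Of the 47 genes, 44 could be tested, and none was called in the fit of 3 against 3 libraries with edgeR's quasi-likelihood test, where 0.627% of all genes tested were called. The lowest adjusted p of a member was 0.25. At an unadjusted p under 0.05 there were 4 members, Hk1, Aldoa and Pcx with lower values and Slc16a1 with higher values under 10HDA, which is 9.09% of members against 10.1% of all genes tested, and neither DESeq2 nor limma-voom called any member. Each culture gave a library of both treatments, so the comparison was also made within cultures, by entering culture as a block. That fit called 3 of the 44 members (6.82%), against 8.98% of all genes tested. Slc16a1, which encodes the lactate and pyruvate transporter MCT1, rose, against 3.91% of all genes tested that rose. Hk1, the hexokinase that starts glycolysis, and Pcx, pyruvate carboxylase, fell, against 5.08% of all genes tested that fell. The share of members called was thus no higher than that of all genes. Blocked fits that leave out a culture, given below, have few libraries, and their p-values take their spread almost wholly from other genes. They say little about how well a gene's own change repeats between cultures.

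Counted without a model, 4 members (9.09%) were lower in every 10HDA library than in any vehicle library, namely Hk1, Aldoa, Pcx and Idh2, against 7.62% of all genes tested. Slc16a1 alone (2.27% of members) was higher in every 10HDA library, against 5.84% of all genes. Within cultures, 12 members (27.3%) had lower values with 10HDA in all 3 cultures and 5 (11.4%) had higher values in all 3, against 21.4% and 18.2% of all genes tested. Those 5 were Slc2a1, Pgk1, Slc16a1, Suclg1 and Mdh1. Across the 44 members, 27 had a log2 fold change below 0 and 17 above 0, with a median of -0.09 against -0.01 for all genes tested. That is 61.4% of members below 0, against 52.1% of all genes tested. An exact permutation test of any single gene cannot go below p = 0.1 with 3 against 3 libraries.

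**Figure D1:**
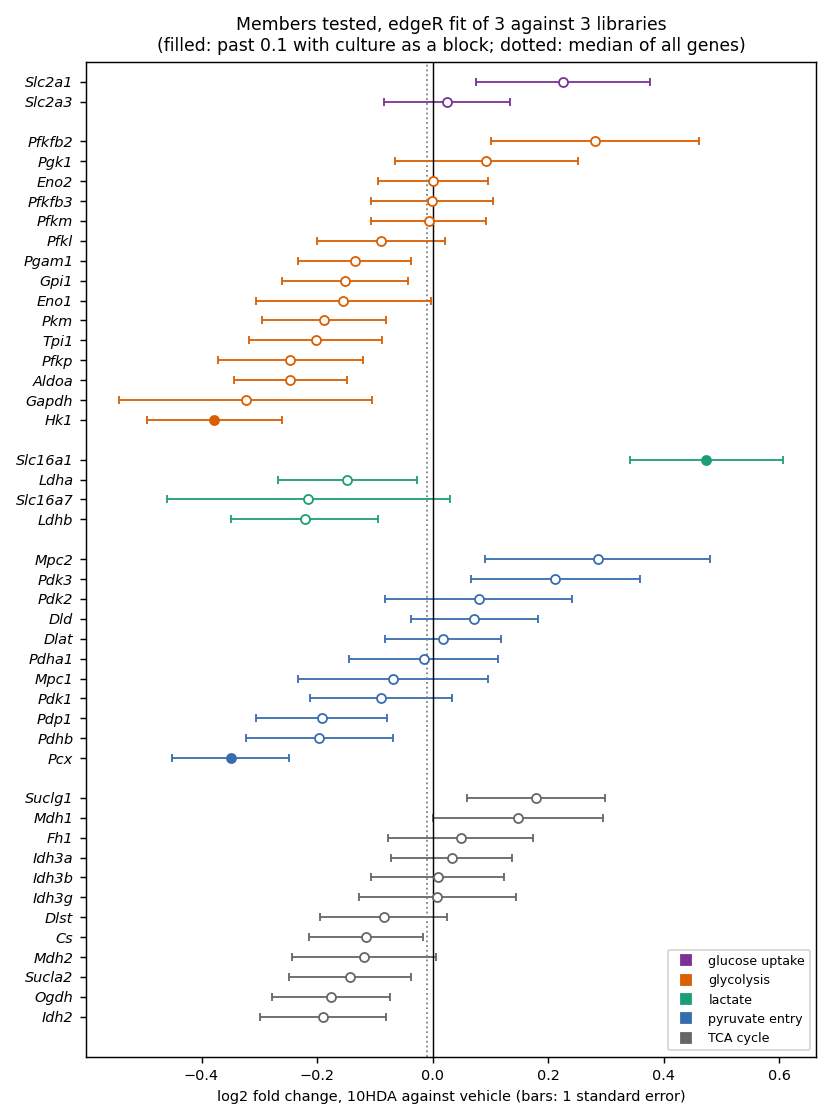
Log2 fold change of the 44 members tested, 10HDA against vehicle, with bars of 1 standard error from edgeR's fit of 3 against 3 libraries, by role. Filled points mark Hk1, Slc16a1 and Pcx, the 3 members called with culture as a block, and 11 of the 13 glycolysis enzymes lie left of 0.

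Slc16a1 (ENSMUSG00000032902.1, chr3:104638668-104658462 on the plus strand of GRCm38) had the largest change of any member in either direction. It stood at 22.7, 25.5 and 20.5 CPM in the vehicle libraries of cultures 1, 3 and 4 and at 33.4, 33.6 and 28.1 CPM in their 10HDA libraries. All of its 10HDA libraries were above all of its vehicle libraries, and culture 4 was the lowest of the cultures in both treatments. The log2 fold change was 0.47 ± 0.13 (SE, n = 3 against 3), or 38.9% higher, with an edgeR adjusted p = 0.25. With culture as a block it was 0.47 ± 0.11 at an adjusted p = 0.012. Slc16a1 was called in all 8 further fits that kept the block, including 0.45 at an adjusted p = 0.038 without culture 1.

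Hk1 (ENSMUSG00000037012.14, chr10:62268855-62379908 on the minus strand) is the housekeeping hexokinase of brain, bound to the outer mitochondrial membrane. Its levels were 352, 314 and 389 CPM with vehicle and 252, 252 and 306 CPM with 10HDA, in the order of cultures 1, 3 and 4. Culture 4 was the highest in both treatments, and within each culture the 10HDA library was the lower. The log2 fold change was -0.38 ± 0.12 (SE), so that Hk1 fell by 23.0%, with an edgeR adjusted p = 0.30 without the block and 0.013 with it. Without culture 1 the blocked value was -0.31 at an adjusted p = 0.064, and without culture 4 it was -0.39 at an adjusted p = 0.15, which is not a call. The overlapping antisense gene Hk1os had 0.61 and 0.67 CPM in the means of the treatments.

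Pcx (ENSMUSG00000024892.11, chr19:4510472-4621752 on the plus strand) varied least of the called members among vehicle libraries, at 60.0, 61.1 and 60.1 CPM. With 10HDA it stood at 48.5, 50.2 and 43.1 CPM. The groups did not overlap, and the largest drop was in culture 4. Its log2 fold change was -0.35 ± 0.10 (SE), a fall by 21.5%, with an edgeR adjusted p = 0.27 without the block and 0.038 with it. The blocked call was not made by DESeq2 (adjusted p = 0.17) nor without culture 4 (-0.29, adjusted p = 0.46), and it stood without culture 1 (-0.36, adjusted p = 0.071).

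**Figure D2:**
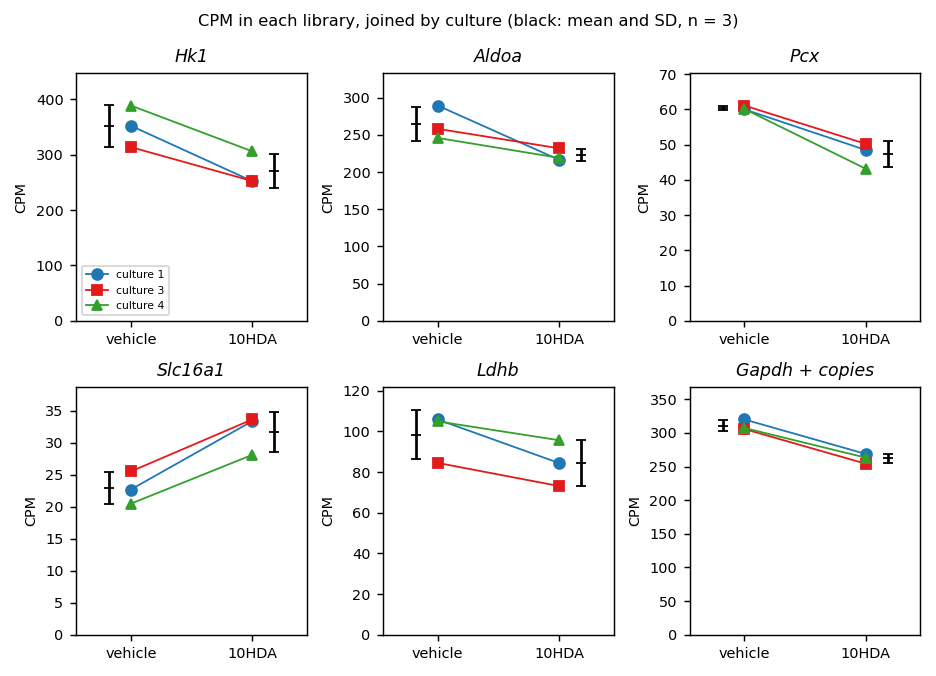
CPM of Hk1, Aldoa, Pcx, Slc16a1, Ldhb and the sum of Gapdh with its 82 copies in each of the 6 libraries, with lines joining the 2 libraries of a culture and black marks for the mean and SD of 3 libraries. In every panel the 10HDA library of a culture lies on the same side of its vehicle library, above it for Slc16a1 (28.1 to 33.6 against 20.5 to 25.5 CPM) and below it for the others. The panels show chosen genes. Of the 44 members tested, 12 were lower and 5 were higher in all 3 cultures.

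The promoter windows of these 3 genes are shown because they are the members called with culture in the fit. Each window spans 250 bases before to 50 bases after a RefSeq transcription start on GRCm38.p6, and it is written 5′ to 3′ on the strand of the gene. Capitals mark matches, on either strand, to the letters ACGTG or GCGTG, cores of the hypoxia response element, or TGACNNNGC, the core of the antioxidant response element, and matches may overlap. The estrogen-related receptor element TNAAGGTCA was searched in the same way. The windows lie at chr3:104638414-104638713 (plus strand) for Slc16a1, chr10:62340372-62340671 (minus strand) for Hk1 and chr19:4510222-4510521 (plus strand) for Pcx.
Slc16a1: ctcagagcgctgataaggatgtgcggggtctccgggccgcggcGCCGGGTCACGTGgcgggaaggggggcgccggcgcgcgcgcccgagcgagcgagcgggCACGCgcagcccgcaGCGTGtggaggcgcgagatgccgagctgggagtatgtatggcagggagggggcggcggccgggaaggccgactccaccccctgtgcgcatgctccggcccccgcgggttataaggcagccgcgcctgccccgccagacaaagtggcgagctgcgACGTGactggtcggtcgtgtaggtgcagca
Hk1: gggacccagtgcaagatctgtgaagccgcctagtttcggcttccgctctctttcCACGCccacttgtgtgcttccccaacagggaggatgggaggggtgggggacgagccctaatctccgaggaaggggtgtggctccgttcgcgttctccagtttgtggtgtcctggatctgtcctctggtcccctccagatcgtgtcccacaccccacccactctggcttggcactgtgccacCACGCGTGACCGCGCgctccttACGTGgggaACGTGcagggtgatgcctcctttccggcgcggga
Pcx: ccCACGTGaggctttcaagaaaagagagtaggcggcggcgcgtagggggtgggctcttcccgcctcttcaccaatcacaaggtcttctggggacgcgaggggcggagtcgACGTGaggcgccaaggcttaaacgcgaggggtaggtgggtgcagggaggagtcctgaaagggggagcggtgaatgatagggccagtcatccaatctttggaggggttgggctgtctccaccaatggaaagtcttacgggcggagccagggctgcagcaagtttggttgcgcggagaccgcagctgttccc
In the Slc16a1 window ACGTG matched 3 times, GCGTG 2 times and the antioxidant core 1 time. In the Hk1 window the counts were 2, 3 and 1, and in the Pcx window 3, 0 and 0. Matches were counted on each strand. The Slc16a1 and Pcx windows each hold 1 CACGTG, which reads the same on both strands and was counted 2 times as ACGTG. The estrogen-related receptor element matched in none of them, and a second annotated window each of Hk1 and Pcx held none of the 4 motifs. Of all 32851 windows in the RefSeq table, 19.6% held ACGTG, 32.4% GCGTG, 12.4% the antioxidant core and 1.28% the estrogen-related receptor element. Windows were found for 43 of the 47 members, and of these 65 windows 46.2% held ACGTG, 50.8% GCGTG, 13.8% the antioxidant core and 1.54% the estrogen-related receptor element. These are matches of letters only.

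In glycolysis, 12 of 15 genes tested (80%) had a log2 fold change below 0, against 52.1% of all genes tested, with a median of -0.15, and 1, Hk1, was called with culture as a block. The sum over the 16 glycolysis genes was 2698 ± 57.8 CPM with vehicle and 2384 ± 119 CPM with 10HDA (SD, n = 3 each). This sum and the shares below hold only each gene's own counts, without the genomic copies described further on. With vehicle, Gapdh entered at 17.8 CPM, against 311 CPM with its copies, and Eno1 at 65.5 against 288 CPM. Its 3 vehicle libraries lay between 2664 and 2765 CPM and its 10HDA libraries between 2287 and 2516 CPM, with no overlap. The summed CPM of all genes tested was lower too, and did not overlap either, but that sum is set by the TMM factors and is not a measure of RNA amount. The mean glycolysis sum was 11.6% lower and that of all genes tested, through this scaling, 5.28% lower. As a share of the counts of all genes tested, glycolysis genes took 0.271%, 0.269% and 0.265% in the vehicle libraries of cultures 1, 3 and 4 and 0.242%, 0.270% and 0.239% in the 10HDA libraries, and in culture 3 the share was not lower. Since culture RNA is pooled over cells, fewer cells of a type and less RNA of these genes per cell cannot be told apart in these values. Without the regulators Pfkfb2 and Pfkfb3, 11 of 13 enzymes were below 0, with a median of -0.15.

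After hexokinase, Gpi1, which makes fructose 6-phosphate, had a log2 fold change of -0.15 ± 0.11 (SE). Of the 3 phosphofructokinases, which commit the sugar to glycolysis, the platelet type Pfkp had the lowest value, -0.25 ± 0.13, the liver type Pfkl had -0.09 ± 0.11 and the muscle type Pfkm had -0.01 ± 0.10. Pfkp stood at 406, 531 and 550 CPM with vehicle and 415, 443 and 393 CPM with 10HDA, so culture 1 did not share the lower value of cultures 3 and 4. In the blocked fit Pfkp had an adjusted p = 0.18, and without culture 1 it was called (-0.35, adjusted p = 0.023). The enzymes that make and remove the phosphofructokinase activator fructose 2,6-bisphosphate, Pfkfb2 and Pfkfb3, had log2 fold changes of 0.28 ± 0.18 and 0.00 ± 0.11. Pfkfb2 was at 47.6 and 49.8 CPM in the 10HDA libraries of cultures 1 and 3 against 35.9 and 37.9 CPM with vehicle, but at 29.3 against 31.2 CPM in culture 4.

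Aldoa, the main aldolase, which splits the 6-carbon sugar, had 290, 258 and 246 CPM with vehicle and 217, 232 and 219 CPM with 10HDA. All vehicle libraries were above all 10HDA libraries. The log2 fold change was -0.25 ± 0.10 (SE), with an unadjusted p = 0.028, an edgeR adjusted p = 0.44 without the block and 0.13 with it. Without culture 1 the blocked value was -0.14 at an adjusted p = 0.55, and culture 1 held the largest drop, -0.42 on the log2 scale against -0.15 and -0.17 in cultures 3 and 4. Tpi1, which interconverts the triose phosphates, had -0.20 ± 0.12, with lower 10HDA values in all 3 cultures.

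For the payoff steps, several genes share sequence with processed copies elsewhere in the genome, which 50-base reads cannot always separate. Gapdh shared 58.4% of its 50-base windows with other genes, Pgk1 68.0%, Eno1 49.5% and Pgam1 41.5%, whereas 22 members, among them Slc16a1 and Pcx, shared none and Hk1 shared 1.64%, with the antisense gene Hk1os. Between these lay Pkm with 23.7%, Ldhb with 21.0%, Pfkp with 15.4% and Aldoa with 8.46%. Gapdh itself, glyceraldehyde 3-phosphate dehydrogenase, had 17.8 ± 2.24 CPM with vehicle and 14.4 ± 5.14 CPM with 10HDA, a log2 fold change of -0.32 ± 0.22 (SE) at an edgeR adjusted p = 0.63, and its counts are uncertain for this reason. Added to the 82 genes that share at least 5% of its windows, the sum was 320, 306 and 307 CPM with vehicle and 269, 254 and 263 CPM with 10HDA, and Gapdh's own counts made up 5.61% of it. The sums did not overlap, and the log2 ratio of their means was -0.25. For Eno1, the ubiquitous enolase, the log2 ratio with its 2 copies was -0.21, for Pgam1 with 2 copies -0.15, and for Pgk1, phosphoglycerate kinase, with 2 copies -0.02. The Eno1, Pgam1 and Pgk1 sums had means of 288 ± 40.1, 193 ± 11.8 and 193 ± 32.5 CPM with vehicle and 249 ± 33.3, 173 ± 10.4 and 191 ± 31.6 CPM with 10HDA.

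Counted alone, Pgk1 had a log2 fold change of 0.09 ± 0.16 (SE), Pgam1 -0.13 ± 0.10, Eno1 -0.15 ± 0.15 and the neuronal enolase Eno2 0.00 ± 0.09. Pkm, pyruvate kinase, was the member with the highest level per kb of gene model, 168 ± 16.3 CPM per kb with vehicle and 147 ± 9.87 with 10HDA. It had 456, 388 and 465 CPM with vehicle and 355, 407 and 385 CPM with 10HDA, lower in cultures 1 and 4 and higher in culture 3, for a log2 fold change of -0.19 ± 0.11 at an edgeR adjusted p = 0.56. Without culture 3, Pkm (-0.31, adjusted p = 0.064), Tpi1 (-0.29, adjusted p = 0.084) and Aldoa (-0.29, adjusted p = 0.082) were called beside Hk1 in the blocked fit. That fit called 6 of the 44 members and 1089 of 10237 genes tested.

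Among the lactate genes, Slc16a1 rose with culture as a block while both lactate dehydrogenase genes had lower means with 10HDA. Ldhb, the subunit that favours lactate oxidation, had 106, 84.5 and 105 CPM with vehicle and 84.5, 73.1 and 95.7 CPM with 10HDA, and Ldha, the subunit that favours lactate formation, had 210, 220 and 175 CPM against 177, 205 and 163 CPM. In all 3 cultures both were lower with 10HDA, but the libraries of the treatments overlapped because the cultures differed. The log2 fold changes were -0.22 ± 0.13 for Ldhb and -0.15 ± 0.12 for Ldha (SE), with edgeR adjusted p = 0.57 and 0.68, and 0.19 and 0.39 with the block. Slc16a7, the high-affinity transporter MCT2 of neurons, ranged from 11.7 to 23.2 CPM with vehicle and from 13.4 to 20.7 CPM with 10HDA, with a log2 fold change of -0.22 ± 0.24. Slc16a3, the export-type transporter MCT4, was at 1.35 ± 0.95 and 1.61 ± 0.98 CPM and was not tested. The ratio of Slc16a1 to Slc16a7 per kb was 1.18 ± 0.46 with vehicle and 1.81 ± 0.54 with 10HDA, and the treatments overlapped.

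Both glucose transporters had log2 fold changes above 0, and neither was called. The level of Slc2a1, the transporter GLUT1 of glia and vessels, was 11.5, 11.4 and 9.49 CPM with vehicle and 12.2, 14.2 and 11.3 CPM with 10HDA, higher in each culture and overlapping between treatments, for a log2 fold change of 0.23 ± 0.15 (SE, edgeR adjusted p = 0.62). For Slc2a3, the neuronal transporter GLUT3, the values were 80.6 to 97.4 CPM and 81.4 to 94.7 CPM, with a log2 fold change of 0.02 ± 0.11. Per kb, Slc2a3 was 3.20 ± 0.38 times Slc2a1 with vehicle and 2.79 ± 0.14 times with 10HDA.

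At the entry of pyruvate into mitochondria, 6 of 11 genes had values below 0 and 5 above, with a median log2 fold change of -0.02, and Pcx was the 1 gene called, with culture as a block. The pyruvate carrier subunits Mpc1 and Mpc2 had log2 fold changes of -0.07 ± 0.16 and 0.29 ± 0.19 (SE). Mpc2 was higher with 10HDA in cultures 1 and 3 (49.4 and 56.7 against 43.0 and 38.7 CPM) and level in culture 4 (31.3 against 31.8 CPM). Of the pyruvate dehydrogenase complex, which makes acetyl-CoA, the E1 subunits Pdha1 and Pdhb had -0.02 ± 0.13 and -0.20 ± 0.13, and Dlat (E2) and Dld (E3) had 0.02 ± 0.10 and 0.07 ± 0.11. Pdha1, with 144 to 169 CPM with vehicle and 128 to 181 CPM with 10HDA, was the most abundant of these in CPM, while Pdhb had the highest level per kb of the entry genes, 53.6 ± 8.05 with vehicle and 46.7 ± 4.78 with 10HDA. The kinases that switch the complex off, Pdk1, Pdk2 and Pdk3, had log2 fold changes of -0.09 ± 0.12, 0.08 ± 0.16 and 0.21 ± 0.15, and the phosphatase Pdp1, which switches it on, had -0.19 ± 0.11. The ratio of Pdk1 to Pdk3 per kb was 1.38, 1.55 and 1.46 with vehicle and 1.17, 1.35 and 1.08 with 10HDA, so the treatments did not overlap, with a narrow gap between 1.38 and 1.35.

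In the TCA cycle, 6 of 12 genes had values below 0 and 6 above, with a median log2 fold change of -0.04. Scaling by library size alone turned it to 0.04 and moved the median of all genes tested from -0.01 to 0.07, and relative to that median the TCA cycle stayed at -0.03 under every scaling tried. No TCA cycle gene was called by edgeR with or without the block, by DESeq2 or by limma-voom, and 0 of the 12 had an unadjusted p under 0.05 in the unblocked edgeR fit. Idh2, the mitochondrial NADP-dependent isocitrate dehydrogenase, had 36.3, 33.3 and 33.8 CPM with vehicle and 29.0, 29.7 and 31.9 CPM with 10HDA. It was the single TCA cycle gene whose treatments did not overlap, with a log2 fold change of -0.19 ± 0.11 (SE, edgeR adjusted p = 0.57, 0.35 with the block). The 3 subunits of the NAD-dependent isocitrate dehydrogenase, Idh3a, Idh3b and Idh3g, stood at 0.03 ± 0.11, 0.01 ± 0.11 and 0.01 ± 0.14.

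Citrate synthase, Cs, which opens the cycle, had the highest level per kb of the TCA genes, 127 ± 11.2 with vehicle and 117 ± 2.32 with 10HDA, and a log2 fold change of -0.12 ± 0.10 (SE). Ogdh and Dlst, subunits of the 2-oxoglutarate dehydrogenase complex, had log2 fold changes of -0.18 ± 0.10 and -0.08 ± 0.11. Of succinyl-CoA synthetase, the shared subunit Suclg1 had 0.18 ± 0.12 and the ADP-forming subunit Sucla2 -0.14 ± 0.11, while the GTP-forming Suclg2 was under the filter at 8.41 ± 1.20 and 9.79 ± 1.91 CPM. Per kb, Suclg1 was 0.454, 0.440 and 0.406 times Sucla2 with vehicle and 0.586, 0.568 and 0.476 times with 10HDA, and Sucla2 was 5.43, 5.83 and 4.81 times Suclg2 against 4.80, 4.20 and 3.61 times. Neither ratio overlapped between treatments, the second by 4.81 against 4.80. Most of the ratios computed did overlap, and no ratio was tested. The size of a ratio between genes depends on the deposited gene lengths, while its change with treatment does not. Of all single genes tested, 7.62% lay lower and 5.84% higher without overlap. The cycle's later enzymes, fumarase Fh1 and the mitochondrial malate dehydrogenase Mdh2, had log2 fold changes of 0.05 ± 0.13 and -0.12 ± 0.12. The malate dehydrogenase Mdh1, counted here with the TCA cycle genes although it is cytosolic, had 0.15 ± 0.15.

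Set side by side, the median log2 fold change was -0.15 for glycolysis, -0.18 for the lactate genes, -0.02 for pyruvate entry, -0.04 for the TCA cycle and 0.13 for glucose uptake, against -0.01 for all genes tested. Within cultures 1, 3 and 4 the glycolysis median was -0.20, -0.04 and -0.09. The TCA cycle median was -0.19, -0.01 and 0.03, so culture 1 was as low for the TCA cycle as for glycolysis, and the other cultures were near 0. Pyruvate entry had medians of 0.02, -0.12 and 0.02, and the lactate genes 0.03, -0.16 and -0.06. Across 25 alternative fits the glycolysis median stayed below 0, between -0.22 and -0.07, and the lactate median between -0.21 and -0.02. The pyruvate entry median was below 0 in 13 of the 25 and the TCA cycle median in 18. Pyruvate entry turned positive with upper quartile scaling and library size alone, scalings that also raised the median of all genes tested to 0.02 and 0.07. Relative to that median, pyruvate entry stayed at -0.01. Leaving out libraries moved the pyruvate entry median too. It lay between -0.09 and 0.06 in 9 such fits without the block and was below 0 in 3 of them. The medians describe lists of unequal size, and whether they differ from each other was not tested.

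**Figure D3:**
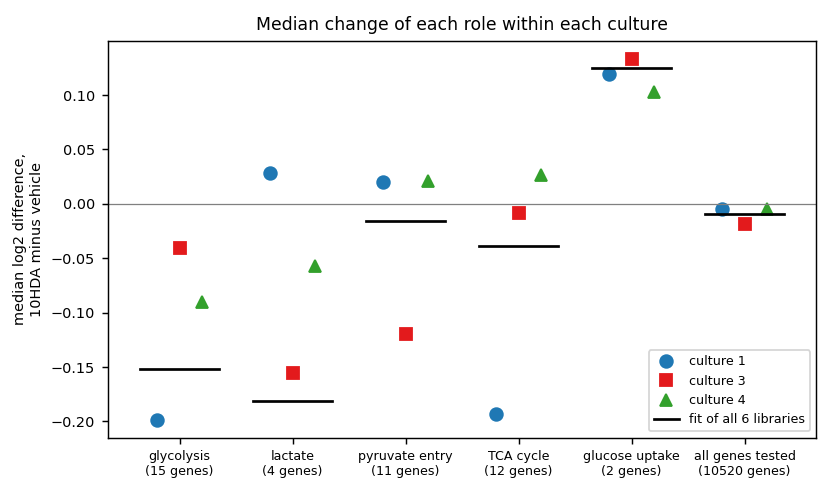
Median log2 difference of the members of each role, 10HDA minus vehicle, within culture 1 (circles), culture 3 (squares) and culture 4 (triangles), with black lines for the fit of all 6 libraries and all genes tested at the right. The glycolysis points lie at -0.20, -0.04 and -0.09, all below 0, while those of the TCA cycle and of pyruvate entry fall on both sides of 0.

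Per kb of gene model, the levels of the members spanned from 0.254 ± 0.18 CPM per kb (Slc16a3) to 168 ± 16.3 (Pkm) with vehicle. Hk1 made up 97.6 ± 1.39% of the summed Hk1 and Hk2 level per kb with vehicle and 97.4 ± 0.34% with 10HDA. Hk2, the inducible hexokinase, was at 5.88 ± 2.91 and 4.97 ± 0.35 CPM and was not tested. Among phosphofructokinases, Pfkp was 0.945 ± 0.23 times Pfkm with vehicle and 0.789 ± 0.07 times with 10HDA, and Pfkm 3.21 ± 0.41 and 3.42 ± 0.46 times Pfkl. Eno2 was 1.91 ± 0.24 and 2.18 ± 0.43 times Eno1 counted alone, but 0.438 ± 0.07 and 0.504 ± 0.07 times Eno1 with its 2 copies, of which Eno1's own counts were 23.1%, so which enolase is the more abundant is uncertain. Ldhb was 0.941 ± 0.20 and 0.899 ± 0.22 times Ldha. These ratios overlapped between treatments. The spread of Ldhb to Ldha followed the cultures, at 0.957, 0.728 and 1.14 with vehicle and 0.905, 0.677 and 1.11 with 10HDA in cultures 1, 3 and 4.

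**Figure D4:**
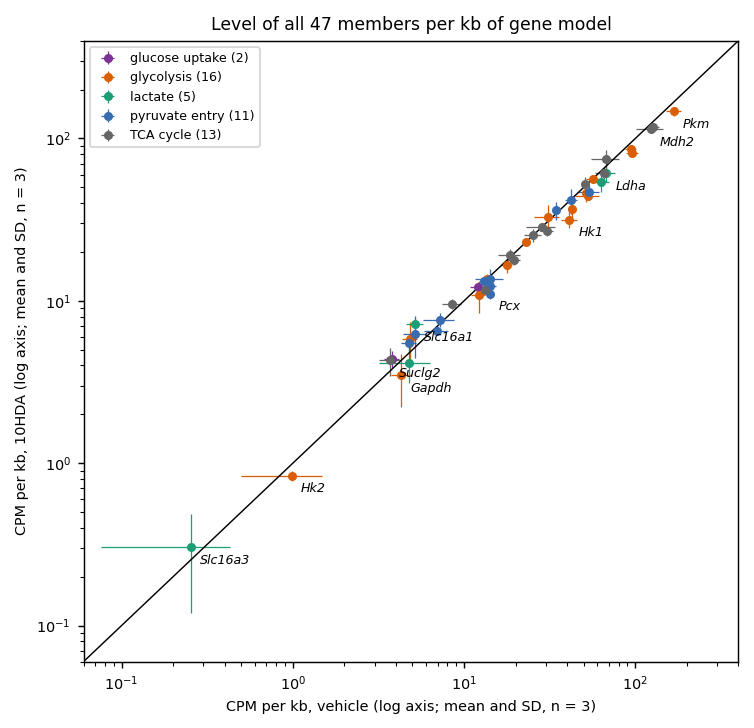
Level of all 47 members in CPM per kb of gene model with vehicle (horizontal, log axis) and with 10HDA (vertical, log axis), as the mean and SD of 3 libraries, coloured by role, with the line of equal levels. Points lie close to the line over the whole range, from Slc16a3 at 0.254 to Pkm at 168 CPM per kb with vehicle, with Slc16a1 above it (5.17 against 7.16) and Hk1 below it (41.2 against 31.7).

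A wider list of 90 further genes of the same routes held 54 that could be tested, 36 with values above 0 and 18 below, with a median log2 fold change of 0.04. Of these 1 was called without the block, Aldoc, the aldolase of astrocytes, where 0.627% of all genes tested were called. With the block 1 of the 54 was called as lower, Aldoc, and 1 as higher, Pck2, against 5.08% and 3.91% of all genes tested. Aldoc fell from 206, 182 and 203 CPM with vehicle to 101, 124 and 111 CPM with 10HDA, a log2 fold change of -0.81 ± 0.11 (SE) at an edgeR adjusted p = 0.019. With culture as a block its adjusted p was 8.4e-06. Without culture 1 the log2 fold change was -0.68, at an adjusted p = 4.5e-07 with the block and 0.16 without it. The first of these p-values takes its spread almost wholly from other genes. The ratio of Aldoa to Aldoc per kb was 1.67, 1.69 and 1.44 with vehicle and 2.55, 2.21 and 2.34 with 10HDA, with no overlap between treatments. Pck2, the mitochondrial phosphoenolpyruvate carboxykinase, had 12.5, 10.4 and 9.15 CPM with vehicle and 20.1, 19.6 and 13.9 CPM with 10HDA. Its log2 fold change was 0.76 ± 0.18, at an adjusted p = 0.15 without the block and 0.0011 with it, and without culture 1 the blocked value was 0.80 at an adjusted p = 0.00067. The succinate dehydrogenase subunits Sdha, Sdhb, Sdhc and Sdhd were not called, with log2 fold changes of -0.08 ± 0.09, 0.19 ± 0.11, 0.24 ± 0.13 and 0.23 ± 0.18. Bsg, the chaperone that MCT1 needs to reach the membrane, had -0.08 ± 0.12, and Hif1a and Txnip, regulators of glycolysis and glucose uptake, had 0.05 ± 0.10 and 0.06 ± 0.15.

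Levels of cell type markers also differed between the treatments. Astrocyte markers summed to 1572 to 1900 CPM with vehicle and 1222 to 1480 CPM with 10HDA, none of the 14 was at 0 in every library, and 5 of the 12 tested were called as lower without the block, Aldoc among them. Neuron markers summed to 8534 to 9260 CPM with vehicle and 7225 to 8205 CPM with 10HDA, none at 0, and 5 of 12 were called as lower with the block. Intermediate progenitor markers went the other way, from 51.4 to 69.2 CPM with vehicle to 77.8 to 114 CPM with 10HDA, and Insm1 and Btg2 were called as higher with the block. With the block, 4 of 10 interneuron, 2 of 10 excitatory neuron, 3 of 8 oligodendrocyte lineage and 2 of 7 radial glia markers (Fabp7 and Ptprz1) were called as lower. The radial glia marker Vim was called as higher. Of all genes tested, 5.08% were called as lower and 3.91% as higher with the block, and 0.627% were called without it. The oligodendrocyte lineage marker Cspg4 was called as lower without the block too. Endothelial and pericyte markers summed to 17.8 to 19.5 CPM with vehicle and 8.58 to 11.4 CPM with 10HDA. Pdgfrb, the 1 of them tested, was called as lower with and without the block. The part of these cells in the lower values of Hk1, Pcx, Aldoa and Aldoc was not tested.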

How the data were processed

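RNA of 6 libraries was measured, and the groups and cultures were taken from the labels. The deposited values are raw counts per gene: per the study's methods and submitters' notes, the authors sequenced 50-base single-end reads, aligned them untrimmed to mm10 with Subjunc of Subread 1.4.4 and counted them with featureCounts on GENCODE models. The library kit is strand-specific, and whether counting used strand is not given in the sources used here. From these counts, log2 fold changes, standard errors and p-values were computed with edgeR 4.0.16 (TMM scaling, glmQLFit and glmQLFTest, at least 10 CPM in 3 libraries, threshold 0.1 as in the study's methods). CPM use the whole library and the TMM factors. DESeq2 1.42.0 and limma 3.58.1 served as alternatives, as did other scalings, filters and left-out libraries, and the code was tested on simulated data. Levels per kb use the deposited gene lengths, which for some genes far exceed their protein-coding transcripts. Suclg1 had a length of 4617 bases but 1514 distinct 50-base windows in such transcripts, and Mpc2 7344 bases but 976 windows. Ratios and ranks of levels per kb between genes are therefore rough. Symbols and positions came from GENCODE M21, which matched 98.0% of identifiers, and shared sequence was counted over 50-base windows of its transcripts.

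Culture was entered as a block because the labels give each culture number 1 library of each treatment. Deviations from the group means of same-culture libraries correlated across genes at r = 0.37, 0.24 and 0.62 in cultures 1, 3 and 4, against -0.45 to 0.18 for other pairs (genes are not independent replicates). A count of 3 corresponds to 0.22 to 0.33 CPM. Genes were named with values when called in either fit, when among the 3 largest changes or the highest level per kb of a role, or as isozymes; the others are given for completeness. Members and lists were chosen with earlier results of these data known. A result that names a withheld item is not reported here.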

Additional observations from a re-analysis of the deposited data

How the results depend on the processing

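The culture block decided most calls: over all genes tested edgeR called 66 without it (31.8% of them higher) and 945 with it (43.5% higher), the latter split moving to 75.0% higher with scaling by library size alone and to 56.4% with upper quartile scaling, and the former to 46.7% higher with library size alone. Members called numbered 0 without the block and 3 with it, and further genes of the routes 1 and 2. Without a filter on low counts they numbered 2 (Slc16a1 and Hk1) and 3, and by DESeq2 0 and 2. Leaving out libraries or cultures without the block gave 0 to 4 members and 0 to 3 further genes, the 4 members (Hk1, Slc16a1, Gapdh and Pfkfb2) arising without the 10HDA library of culture 4, and Aldoc (-0.81) was not called without vehicle replicate 3 (-0.84, adjusted p = 0.11), 10HDA replicate 1 (-0.74, 0.19), culture 1 (-0.68, 0.16) or culture 3 (-0.95, 0.14), unblocked fits of fewer samples that called 0 to 2 genes in all. The fits chosen after seeing the data all kept the block: limma-voom, DESeq2 size factors and upper quartile scaling each called 3 members and 2 further genes, DESeq2 called 2 and 2, and library size alone called 5 (adding Pfkfb2 and Mpc2) and 10. Without culture 1 the block called 4 and 3, without culture 3 it called 6 and 3, and without culture 4 it called 1 and 3. Over all genes these fits called 869, 1089 and 358, with p-values that take their spread almost wholly from other genes. The unblocked fit without the 10HDA library of culture 4 called 355 genes, and the block with library size alone called 1265. Causes were not tested. No gene's value larger than its standard error changed direction, the medians of pyruvate entry and of the TCA cycle changed sign within the spread between cultures and, under other scalings, along with the median of all genes, and of 822 values of 46 genes under alternatives, 776 stayed on their side of the threshold, 42 crossed it to a call and 4 lost a call. Member standard errors of 0.09 to 0.24 on the log2 scale limit what 3 against 3 libraries can show.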
